A study of Mus musculus with 28 samples.

Results

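The metallothioneins Mt1, Mt2 and Mt3 were followed in mouse cortical tissue on 28 MTA 1.0 arrays. They were chosen by symbol, each symbol had 1 row on the array, and they make up 3 of the 30727 genes named and 3 of the 65956 rows tested. The 4 groups of 7 mice were wild type after sham treatment (WT sham), wild type after controlled cortical impact (WT CCI), and the same procedures in mice labelled as knockout for Rbm5 (KO sham and KO CCI), all aged 12 to 15 weeks. CCI is a mechanical brain injury, here with an impact at 6 m/s to a depth of 1.2 mm after a craniotomy, while sham mice had anaesthesia without a craniotomy. Every injury change below therefore includes the craniotomy. Tissue was taken 48 h after the procedure. The labels give no strain and do not say how Rbm5 was deleted, or in which cells. Each group held 3 males and 4 females, except KO sham with 4 males and 3 females. Mice are named by the number in their sample titles.

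Metallothioneins are small cysteine-rich proteins that bind zinc and copper, buffer the supply of these metals and react with oxidants. Transcription of Mt1 and Mt2 is driven by the zinc-sensing factor MTF-1 (Mtf1) through metal response elements, and is also raised by glucocorticoids, by cytokines of the IL-6 family acting through STAT3, and by oxidants. In brain, Mt1 and Mt2 are made largely by astrocytes, whereas Mt3, first described as growth inhibitory factor, is found in neurons and astrocytes and responds little to metals. The remaining mouse member, Mt4, belongs to stratified squamous epithelium.

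The stretches of 250 bases before the annotated starts of the 3 genes are shown because the family is known for its control through metal response elements, and the windows differ in how many matches they hold. They are taken from RefSeq on GRCm38.p6 and all lie on the plus strand, Mt1 at chr8:94178839-94179088, Mt2 at chr8:94172368-94172617 and Mt3 at chr8:94152357-94152606. Capitals mark matches to the metal response element core, TGCACNC or TGCGCNC on either strand.
Mt1: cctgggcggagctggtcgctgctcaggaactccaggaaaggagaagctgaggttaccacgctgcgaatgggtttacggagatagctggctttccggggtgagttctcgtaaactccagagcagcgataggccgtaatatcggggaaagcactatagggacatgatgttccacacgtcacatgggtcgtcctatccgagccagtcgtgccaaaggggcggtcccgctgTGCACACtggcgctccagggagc
Mt2: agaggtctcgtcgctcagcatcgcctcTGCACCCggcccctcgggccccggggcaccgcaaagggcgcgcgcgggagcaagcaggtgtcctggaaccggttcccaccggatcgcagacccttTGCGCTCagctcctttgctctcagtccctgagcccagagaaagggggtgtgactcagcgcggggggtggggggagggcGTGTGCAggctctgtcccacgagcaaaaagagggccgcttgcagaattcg
Mt3: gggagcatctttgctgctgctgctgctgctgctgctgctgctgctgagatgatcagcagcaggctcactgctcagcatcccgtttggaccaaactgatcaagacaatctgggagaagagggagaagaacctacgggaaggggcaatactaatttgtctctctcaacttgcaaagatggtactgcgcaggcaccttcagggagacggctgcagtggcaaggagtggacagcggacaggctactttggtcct
The Mt1 window holds 1 match, beginning 23 bases before the start. Mt2 has 3, beginning 223, 128 and 50 bases before it, the last of them on the minus strand. The Mt3 window has none. Of 32851 promoters in the same table, 21.4% hold at least 1 match and 1.26% hold at least 3. When the 50 bases after the start are added, Mt1 has 3 matches, as many as or more than which are held by 1.97% of promoters, Mt2 has 4 (0.517%), and Mt3 has 1, as 25.7% of promoters do. A core of the antioxidant response element, TGACNNNGC, is present in the 250 bases of Mt2 and absent from those of Mt1 and Mt3, and 10.2% of promoters hold it. Neither the STAT site TTCNNNGAA (7.02% of promoters), nor the palindromic glucocorticoid response element (0.00913%), nor the letters TATAAA (12.4%) occur in any of the 3 windows. Both strands were searched for each motif, and in these 3 windows no match overlapped a match of another motif. The 50 bases after the start were searched only for the metal response element core. These are matches of letters in a short window and were not tested as binding sites. What a window holds depends on where the annotated start lies, as the Mt1 counts of 1 and 3 show. The start used in this tissue was not tested, so absence from a window is not absence from the promoter.

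Values are log2 signal, and a difference of 1 is a doubling of signal. The 3 rows were bright: over the 28 arrays 589 of the 65956 rows had a higher mean than Mt2 (0.893%), 1006 a higher mean than Mt1 (1.53%) and 2641 a higher mean than Mt3 (4.004%). Probes of different genes respond differently, so the level of one member is not compared with that of another. Mt1 and Mt2 are close paralogues, and probes of one may take up transcripts of the other, which was not tested. Mt4 had means of 5.48 to 5.50 in the 4 groups, below the lowest array median of 5.79, and its log2 change with injury was 0.00066 in wild type and 0.016 in knockout. Log2 changes and differences are those of the model with a term for sex, so they can depart slightly from the difference of the printed means. A test was called at a Benjamini-Hochberg adjusted p under 0.05 over all rows.

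The labels were checked with Rbm5, whose log2 signal was lower on each of the 14 knockout arrays (9.66 to 9.84) than on each wild type array (10.59 to 10.82). Its signal in knockout was 0.49-fold that of wild type after sham and 0.53-fold after injury. It stayed well above the array medians, so the row shows a lower and not an absent signal. The array medians lay between 5.79 and 5.90. The means of 12 neuronal markers were 13.52 to 13.98 over all arrays, and none of the 12 lay below the array medians. Markers of neighbouring tissue stood apart on 7 arrays. The mean of 6 striatal genes was 8.92, 9.45 and 9.58 in WT CCI mice 13, 16 and 35 and 9.06 and 9.90 in KO CCI mice 22 and 40, against 6.88 to 7.51 in WT sham and 6.97 to 8.20 in KO sham. KO CCI mice 23 and 42, the highest of their group for Mt1 and Mt2, had striatal means of 8.30 and 8.04 and were not among the 7. The mean of 7 ependyma and choroid plexus genes was 8.19 in WT sham mouse 25, 8.34 and 7.26 in WT CCI mice 14 and 35 and 8.04 in KO CCI mouse 40, against medians of 5.75 to 5.96 in the 4 groups. The injury changes of the metallothioneins are given with and without these 7 arrays, as are some genotype and sex differences and list counts. Correlations within groups, genes most like each metallothionein and differences between metallothioneins within arrays are not given without the 7 arrays.

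All 3 metallothioneins rose with injury in wild type cortex. Mt2 rose 2.74-fold, Mt1 1.68-fold and Mt3 1.43-fold. Among all rows, 8.86% were called higher and 7.96% lower in this comparison, and 23.8% of the 2642 rows at least as bright as Mt3 were called higher.

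Mt2 had log2 signals of 16.46, 16.13, 16.57, 16.38, 16.64, 16.77 and 16.63 in WT sham mice 1, 2, 3, 4, 25, 26 and 27. After injury it stood at 17.57, 17.73, 18.22, 17.70, 17.90, 18.36 and 18.28 in WT CCI mice 13, 14, 15, 16, 34, 35 and 36. The groups lay far apart, and the lowest injured mouse was above the highest sham mouse by more than the range of the sham group. The means were 16.51 ± 0.21 (SD, n = 7) and 17.97 ± 0.32, a log2 change of 1.45 (SE 0.11, 95% interval 1.23 to 1.68, limma adjusted p = 1.16e-10), and by its p the row ranked 163 of 65956.

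Mt1 had log2 signals of 15.35, 15.03, 15.30, 15.25, 15.33, 15.48 and 15.38 in the same order of WT sham mice, and of 15.65, 15.66, 16.34, 15.93, 16.03, 16.48 and 16.25 in WT CCI. The groups did not overlap, although mice 13 and 14, both male, stood nearest to the sham range. The mean went from 15.30 ± 0.14 to 16.05 ± 0.33, a log2 change of 0.75 (SE 0.10, 95% interval 0.54 to 0.96, limma adjusted p = 3.19e-06).

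Mt3 had log2 signals of 12.57, 12.48, 12.57, 12.30, 12.50, 12.67 and 12.75 in WT sham and of 12.92, 12.93, 13.26, 13.11, 13.12, 12.74 and 13.33 in WT CCI. Here the groups touched, because mouse 35, which was the highest injured mouse for Mt1 and Mt2, was the lowest for Mt3 and fell just under the highest sham mouse. The mean went from 12.55 ± 0.14 to 13.06 ± 0.21, a log2 change of 0.51 (SE 0.084, 95% interval 0.34 to 0.69, limma adjusted p = 4.64e-05). Groups that did not overlap, with injury higher, were found for 4.44% of all rows, and for Mt1 and Mt2 among the members.

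**Figure D1:**
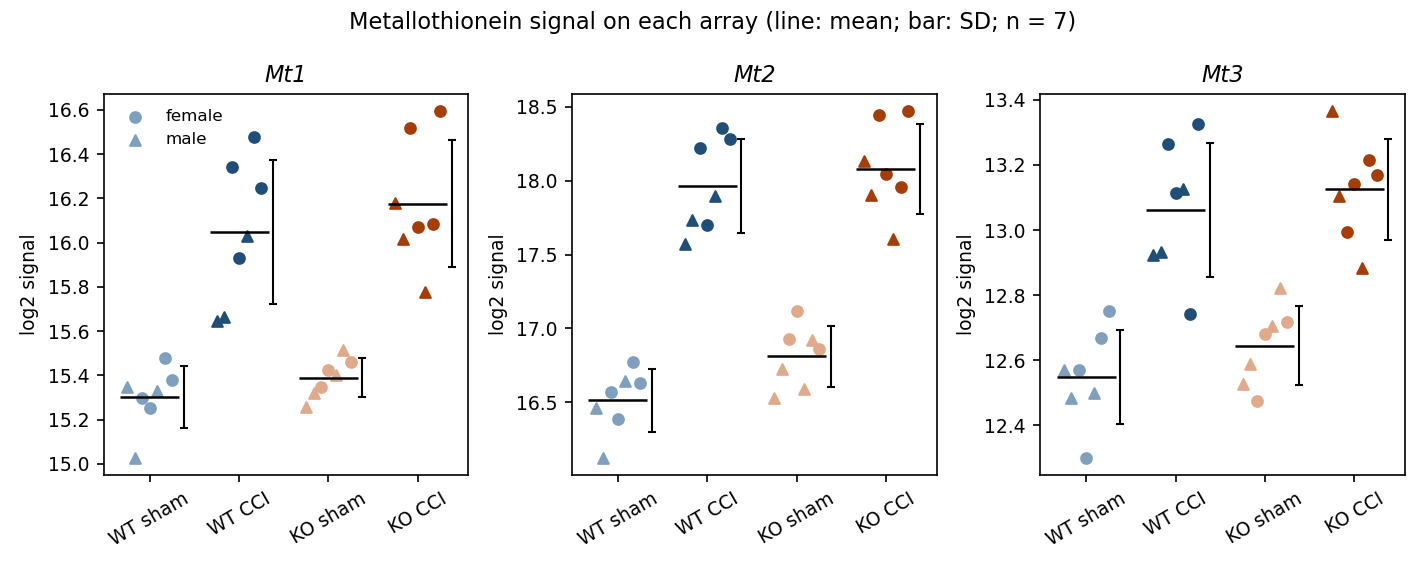
Each point is the log2 signal of Mt1, Mt2 or Mt3 on 1 array, by group, with circles for females and triangles for males, a line at the group mean and a bar of 1 SD (n = 7 per group), and each panel has its own axis. The injured groups sit above the sham groups of their genotype in all panels, with contact only for Mt3 in wild type, where an injured mouse at 12.74 lies beside a sham mouse at 12.75.

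The same comparison in knockout gave a rise of all 3 genes, against a background of 8.43% of rows called higher, 8.27% called lower, and 22.4% called higher among rows at least as bright as Mt3. Mt2 had log2 signals of 16.53, 16.73, 16.93, 17.12, 16.59, 16.92 and 16.86 in KO sham mice 9, 10, 11, 12, 31, 32 and 33. In KO CCI mice 21, 22, 23, 24, 40, 41 and 42 it stood at 18.13, 17.91, 18.44, 18.04, 17.60, 17.96 and 18.47, all above every sham mouse. Mouse 40 was lowest and mice 23 and 42 were highest. The mean went from 16.81 ± 0.21 to 18.08 ± 0.31, and the log2 change fitted with the sex term was 1.23 (SE 0.11, 2.34-fold, limma adjusted p = 5.51e-09).

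Mt1 had log2 signals of 15.26, 15.32, 15.35, 15.42, 15.40, 15.52 and 15.46 in KO sham and of 16.18, 16.01, 16.52, 16.07, 15.77, 16.09 and 16.59 in KO CCI. The order of the injured mice at both ends was that of Mt2. The log2 change was 0.75 (SE 0.10, 1.69-fold, limma adjusted p = 4.52e-06), from 15.39 ± 0.089 to 16.18 ± 0.29. Mt3 had log2 signals of 12.53, 12.59, 12.47, 12.68, 12.70, 12.82 and 12.72 in KO sham and of 13.36, 13.11, 12.99, 13.14, 12.88, 13.22 and 13.17 in KO CCI, and these groups did not overlap. Its log2 change was 0.47 (SE 0.085, 1.39-fold, limma adjusted p = 0.000171), from 12.64 ± 0.12 to 13.12 ± 0.16. Of all rows, 3.51% had injured knockout mice all above sham knockout mice, and each of the 3 members did.

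The sample titles are numbered in runs of 1 to 24 and 25 to 42, with 4 and 3 mice per group, which the labels do not call batches. In the lower run the log2 changes in wild type were 0.66 for Mt1, 1.42 for Mt2 and 0.58 for Mt3, and in the upper run they were 0.86, 1.497 and 0.43. In knockout they were 0.86, 1.31 and 0.58 in the lower run and 0.61, 1.12 and 0.31 in the upper. In the upper run alone, Mt3 was not called in wild type (limma adjusted p = 0.106) or in knockout (0.289), nor was Mt1 in knockout (0.0558). Without the 7 arrays with striatal or choroid plexus signal the changes were 0.91, 1.64 and 0.68 in wild type and 0.85, 1.30 and 0.54 in knockout for Mt1, Mt2 and Mt3, and all 6 were called.

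The size of the rise differed between members. This was asked within arrays, from the log2 signal of one member minus that of another on each array, with exact two-sided permutation tests of injured against sham mice (3432 splits, Benjamini-Hochberg adjusted over 6 tests). Mt2 rose more than Mt1: Mt1 minus Mt2 fell by 0.71 with injury in wild type and fell by 0.48 in knockout (adjusted p = 0.000874 for each exact test, from 0.000583, the smallest p these splits give). On every injured array of either genotype Mt1 minus Mt2 lay below its value on every sham array of that genotype, from -2.07 to -1.77 against -1.32 to -1.10 in wild type and from -1.97 to -1.83 against -1.69 to -1.19 in knockout. Mt2 also rose more than Mt3, by 0.94 in wild type and 0.79 in knockout (adjusted p = 0.000874 for each exact test).

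Mt1 and Mt3 were closer. Mt1 minus Mt3 was higher with injury by 0.23 in wild type, which was not called (exact permutation test, adjusted p = 0.0886), and by 0.31 in knockout (adjusted p = 0.0021). The value in wild type moved with the setting and with single mice: it was 0.086 in the lower run, 0.43 in the upper, 0.15 after quantile normalization and 0.11 without mouse 35, and it passed the threshold without mouse 13 (adjusted p = 0.0396 by exact test) or mouse 14 (0.0414). In knockout the call was lost after quantile normalization (0.18, exact adjusted p = 0.222) and in the lower run (0.28, exact adjusted p = 0.0686). Whether the rows differ in how signal follows transcript number was not tested.

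Differences between knockout and wild type were not called for any member, while the injury changes of all 3 were called in both genotypes. After sham treatment 1.28% of rows were called, and none of the 3 members was. Mt2 came nearest, with a log2 difference of 0.34, KO minus WT (SE 0.11, 95% interval 0.11 to 0.57, 1.27-fold, limma adjusted p = 0.151). The groups overlapped, since 4 of the 7 knockout values (16.93, 17.12, 16.92 and 16.86) were above the highest wild type value of 16.77 and the other three were within the wild type range. Mt1 differed by 0.12 (95% interval -0.089 to 0.33, limma adjusted p = 0.738) and Mt3 by 0.10 (-0.073 to 0.28, limma adjusted p = 0.737). After injury 0.653% of rows were called. Mt1 differed by 0.13 (95% interval -0.081 to 0.34, limma adjusted p = 0.743), Mt2 by 0.11 (-0.11 to 0.34, 0.804) and Mt3 by 0.064 (-0.11 to 0.24, 0.871). The signs for Mt1 and Mt2 after injury differed between the runs, with 0.30 and 0.33 in the lower run and -0.10 and -0.17 in the upper, and the sign for Mt3 turned without the 7 arrays (-0.059).

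Each member thus had its group means in 1 order, WT sham, KO sham, WT CCI and KO CCI, in which neither the sham neighbours nor the injured neighbours differed by an adjusted test, although the 95% interval of Mt2 between the sham groups lay above 0. The change with injury was compared between genotypes directly. The injury change in knockout minus that in wild type was 0.0071 for Mt1 (95% interval -0.29 to 0.30), -0.23 for Mt2 (-0.55 to 0.093) and -0.038 for Mt3 (-0.28 to 0.21), with limma adjusted p of 0.998, 0.833 and 0.975. The intervals allow a difference in the Mt2 response as large as -0.55 and for Mt1 a difference of about 0.30 in either direction. For Mt2 the value was -0.11 in the lower run, -0.38 in the upper and -0.34 without the 7 arrays. By limma 0% of rows were called for this difference. An unadjusted limma p under 0.05 was found for 4097 of the 65956 rows, and a share of about 0.05 would be met without any difference. The sham groups serve both the injury and the sham genotype comparisons, so these values are not independent of each other.

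**Figure D2:**
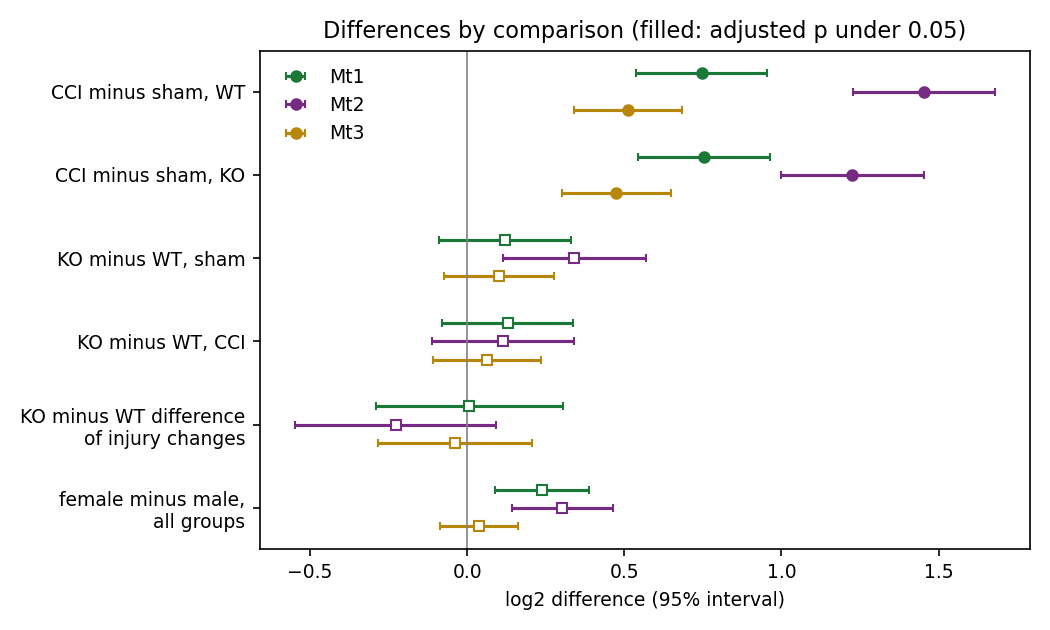
Points are log2 differences of Mt1, Mt2 and Mt3 in 6 comparisons from the limma model (n = 7 mice per group), bars are 95% intervals, and filled points have an adjusted p under 0.05. The injury changes of both genotypes are the filled ones, led by Mt2 at 1.45 and 1.23, and the intervals of the genotype comparisons include 0 except for Mt2 after sham (0.34).

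Females had higher Mt1 and Mt2 signals than males in each of the 4 groups by their means, without a call. In WT CCI the mean of Mt1 was 16.25 in 4 females and 15.78 in 3 males, and that of Mt2 was 18.14 and 17.73. In WT sham the means were 15.35 and 15.23 for Mt1 and 16.59 and 16.41 for Mt2. Over all groups the difference, female minus male, was 0.30 for Mt2 (SE 0.079, 95% interval 0.14 to 0.46, limma adjusted p = 0.108), 0.24 for Mt1 (SE 0.073, 0.089 to 0.39, limma adjusted p = 0.332) and 0.037 for Mt3 (limma adjusted p = 1.0), where 0.487% of rows were called. For Mt2 the comparison crossed the threshold when WT sham mouse 25 or WT CCI mouse 16 was left out (limma adjusted p = 0.0478 and 0.0440). For Mt1 the difference was 0.13 without the 7 arrays, among which WT sham mouse 25, WT CCI mice 13 and 14 and KO CCI mice 22 and 40 are male. Leaving them out keeps mouse 34 as the only male of WT CCI and mouse 21 as the only male of KO CCI. Without the 7 arrays the sex difference in the injury change therefore rests on these single males for injured males. The sex difference over all groups also uses the sham males that were left. The injury change was larger in females by 0.32 for Mt1 (95% interval 0.035 to 0.60, limma adjusted p = 0.795, and by 0.099 without the 7 arrays), by 0.15 for Mt2 (adjusted p = 0.931) and by 0.055 for Mt3 (adjusted p = 0.978), none of them called, among 0.0106% of rows called (7 rows).

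Within groups, Mt1 and Mt2 varied together from mouse to mouse. Pearson's r was 0.987 in KO CCI (Spearman's rho 0.964), 0.948 in WT CCI (rho 0.929), 0.944 in WT sham (rho 0.821) and 0.582 in KO sham (rho 0.536), each over 7 mice. The first 3 passed an exact permutation test adjusted over the 24 relations computed (adjusted p = 0.00952, 0.027 and 0.027), and the exact adjusted p of rho was 0.0667, 0.081 and 0.164 for the same groups, so none passed by rank. Without the 2 mice farthest from the median of Mt1, r was 0.983 in KO CCI, 0.893 in WT CCI and 0.638 in WT sham, and the last relation rests on those mice. Probes shared by the paralogues and the uncalled sex differences of both genes can enter these values, and their part was not tested.

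Mt3 followed Mt1 less regularly. Their r was 0.878 in KO sham (exact permutation test, adjusted p = 0.0655), 0.545 in WT sham, 0.240 in KO CCI and 0.179 in WT CCI, and no relation of Mt3 with Mt1 or Mt2 passed. In the injured groups r of Mt1 with Mt3 was 0.959 in WT CCI and 0.976 in KO CCI once the 2 mice farthest from the Mt1 median were left out, so the low values rest on those mice. Leaving out the 2 mice farthest from the Mt2 median moved r of Mt2 with Mt3 from 0.197 to 0.869 in WT CCI. In KO CCI the same step moved it from 0.317 to -0.397. These values thus turn on which mice are left out, and the high ones do not show that Mt3 follows Mt1. None of the 12 relations with Gfap, the astrocyte intermediate filament, passed (exact adjusted p from 0.441 to 0.942). The largest were those of Mt3 in the injured groups, with r of 0.686 in KO CCI and 0.664 in WT CCI, which were 0.214 and 0.227 without the 2 mice farthest from the median of Mt3.

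**Figure D3:**
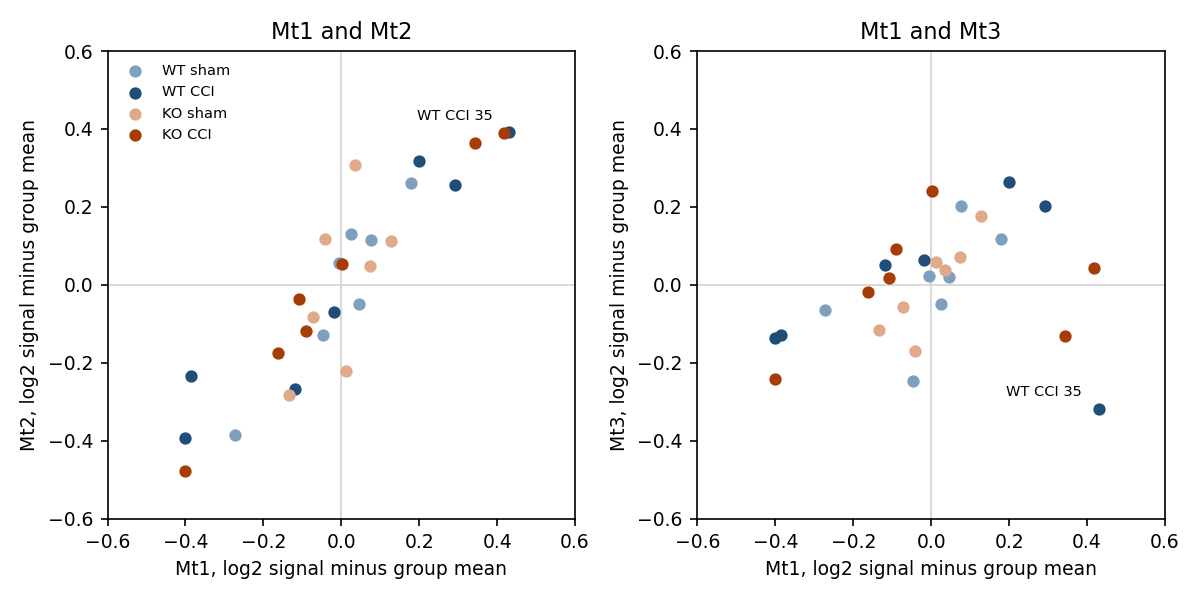
Each point is 1 of 28 arrays, plotted as log2 signal minus its group mean for Mt1 (horizontal axes) against Mt2 and against Mt3 (vertical axes), coloured by group. Mt1 and Mt2 lie along a line in 3 of the 4 groups (r from 0.944 to 0.987, and 0.582 in KO sham), while in the panel with Mt3 the injured wild type mouse 35 sits high for Mt1 and low for Mt3.

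The genes whose signal varied most like each member were listed over the 28 arrays after subtraction of group means, among 18960 genes, as a description that includes whatever the arrays share, such as sex and tissue makeup. Mt1 and Mt2 were each other's nearest gene (r = 0.905). After Mt2, the nearest to Mt1 were Adm, which encodes the vasodilator peptide adrenomedullin (r = 0.825), Ifitm7 (0.823), Kazald1 (0.790) and Ctla2a (0.788). Of these Adm rose with injury in wild type (log2 change 1.02) and Ctla2a rose in both genotypes (1.32 and 1.17), while Kazald1 was called in neither. After Mt1, the nearest to Mt2 were Slc39a14, a zinc importer (r = 0.823), Sdc4, a heparan sulphate proteoglycan of the cell surface (0.800), Rras, a small GTPase (0.765), and Pnpla7 (0.736). Slc39a14, Sdc4 and Rras rose in both genotypes, Sdc4 by 1.63 in wild type and 1.46 in knockout, and Pnpla7 rose in wild type (0.16). The nearest to Mt3 were Renbp (r = 0.748), the cytochrome oxidase subunit Cox6c (0.746), Ift20, a part of the intraflagellar transport machinery (0.743), the replication protein Rpa1 (0.741) and the upper-layer neuron factor Cux2 (0.737). Among these Renbp and Rpa1 rose and Ift20 fell in both genotypes, and Cux2 fell in knockout (log2 change -0.31). Renbp had a mean of 5.26, also below the lowest array median. Mt1 and Mt2 were far down the list of Mt3, with r of 0.291 and 0.306.

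Zinc transporters were examined next, in lists of zinc, copper and regulatory genes chosen by function. The median log2 change of all rows was -0.023 in wild type and 0.012 in knockout. Of all rows 8.86% were called higher and 7.96% lower in wild type, and 8.43% and 8.27% in knockout. The counts of each list below stand beside these shares. Of 14 zinc importers of the ZIP family, 4 rose and 2 fell in wild type, with a list median of 0.061, and 5 rose and 2 fell in knockout (median 0.039). Slc39a14 had log2 signals of 6.81 to 6.96 in WT sham and 7.41 to 7.59 in WT CCI, with no overlap, and rose by 0.57 (SE 0.047, limma adjusted p = 5.93e-10), and by 0.44 in knockout. Slc39a1 rose by 0.74 in wild type and 0.66 in knockout, and Slc39a8 by 0.32 and 0.23. The falls were those of Slc39a12 (log2 change -0.59 in wild type and -0.62 in knockout), an importer found in astrocytes, and Slc39a10 (-0.41 and -0.40).

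Of 10 zinc exporters of the ZnT family, 1 rose and 3 fell in wild type (median -0.0078) and 4 fell in knockout (median 0.034). Slc30a1, the plasma membrane exporter that MTF-1 activates, ranged from 7.98 to 8.28 in WT sham and from 7.94 to 8.27 in WT CCI, and was called in neither genotype (log2 change -0.028 in wild type and 0.11 in knockout, limma adjusted p = 0.835 and 0.246). Slc30a3, which loads zinc into synaptic vesicles, fell by 0.36 in wild type (SE 0.087, limma adjusted p = 0.00343) and fell by 0.28 in knockout. Its signals were 8.74 to 9.21 in WT sham and 8.23 to 8.64 in WT CCI, with no overlap. How many of all rows were separated with injury lower was not counted. Slc30a10 had log2 changes of -0.29 and -0.28, Slc30a9 of -0.13 in each genotype, and Slc30a7 rose by 0.18 in wild type. Without the 7 arrays, which left 3 WT CCI and 5 KO CCI mice, limma called 0 of the 10 in wild type and 2 in knockout, and 8997 rows in place of 11094 for injury in wild type. Slc30a3 then had log2 changes of -0.24 and -0.25, Slc30a10 of -0.27 and -0.39, Slc30a9 of -0.14 and -0.12, and Slc30a7 of 0.21 and 0.096. Fewer mice and less signal of neighbouring tissue cannot be told apart in these counts.

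Of 13 measured copper handling genes, 8 rose and 1 fell in wild type (median 0.20) and 7 rose and 1 fell in knockout (median 0.15). Sod3, which rose in both genotypes, had a mean signal below the array medians. Cp, which encodes the copper-carrying ferroxidase ceruloplasmin, had log2 signals of 7.63 to 7.83 in WT sham and 8.62 to 9.72 in WT CCI, and rose by 1.47 (SE 0.14, limma adjusted p = 9.67e-09), and by 1.65 in knockout. The copper importer Slc31a1 rose by 0.41 and 0.26 in wild type and knockout, and the copper pump Atp7a by 0.38 and 0.24. Cox11, needed for copper insertion into cytochrome oxidase, fell by 0.24 in wild type and fell by 0.28 in knockout.

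Among 17 measured genes of the pathways that induce metallothioneins, 6 rose and 2 fell in wild type (median 0.12), and 7 rose and 3 fell in knockout (median 0.087). Of the 17, Il6, Lif, Osm and Il11 had means below the array medians, and the calls include Il6 in wild type and Lif and Il11 in knockout. The knockout count of 10 was 6 after quantile normalization. Mtf1 itself was at 7.96 to 8.10 in WT sham and 8.03 to 8.15 in WT CCI, with overlap, and was not called in either genotype (log2 change 0.046 and 0.011, limma adjusted p = 0.477 and 0.901). Osmr, the receptor chain for oncostatin M, rose by 2.48 and 2.14. Stat3, the transcription factor of this cytokine family, went from 8.20 to 8.33 in WT sham to 9.48 to 9.97 in WT CCI and rose by 1.497 (SE 0.070, limma adjusted p = 1.62e-14), and by 1.33 in knockout. Nfe2l2, which encodes the oxidant-activated factor Nrf2, rose by 0.89 and 0.84. The glucocorticoid receptor Nr3c1 fell by 0.27 in wild type (SE 0.051, limma adjusted p = 0.000268) and fell by 0.30 in knockout. Its injured wild type range of 10.21 to 10.40 lay below that of sham, 10.49 to 10.73, a separation whose share among all rows was not counted. Lifr, the receptor of leukaemia inhibitory factor, fell by 0.21 and fell by 0.18.

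The lists of genes induced by these pathways were counted in the same way. Of 10 measured genes induced by oxidants through Nrf2, 7 rose and none fell in each genotype, with medians of 0.53 and 0.43. Hmox1, the inducible haem oxygenase, rose by 5.17 and 5.05 from sham means of 5.61 and 5.63, which lie below the lowest array median and leave the fold inexact. The cystine transporter Slc7a11 rose by 0.91 and 0.86, and the thioredoxin reductase Txnrd1 by 0.88 and 0.81. Of 15 glucocorticoid-induced genes, 5 rose and 3 fell in wild type (median 0.099) and 3 rose and 1 fell in knockout (median 0.031). Among the rises in wild type were Cdkn1a (1.26), a p53 target as well, Pdk4 (0.47) and Nfkbia (0.47), and the falls were Dusp1 (-0.74), Zbtb16 (-0.39) and Tsc22d3 (-0.20). The 8 calls in wild type were 5 without the sex term and 4 without the 7 arrays.

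**Figure D4:**
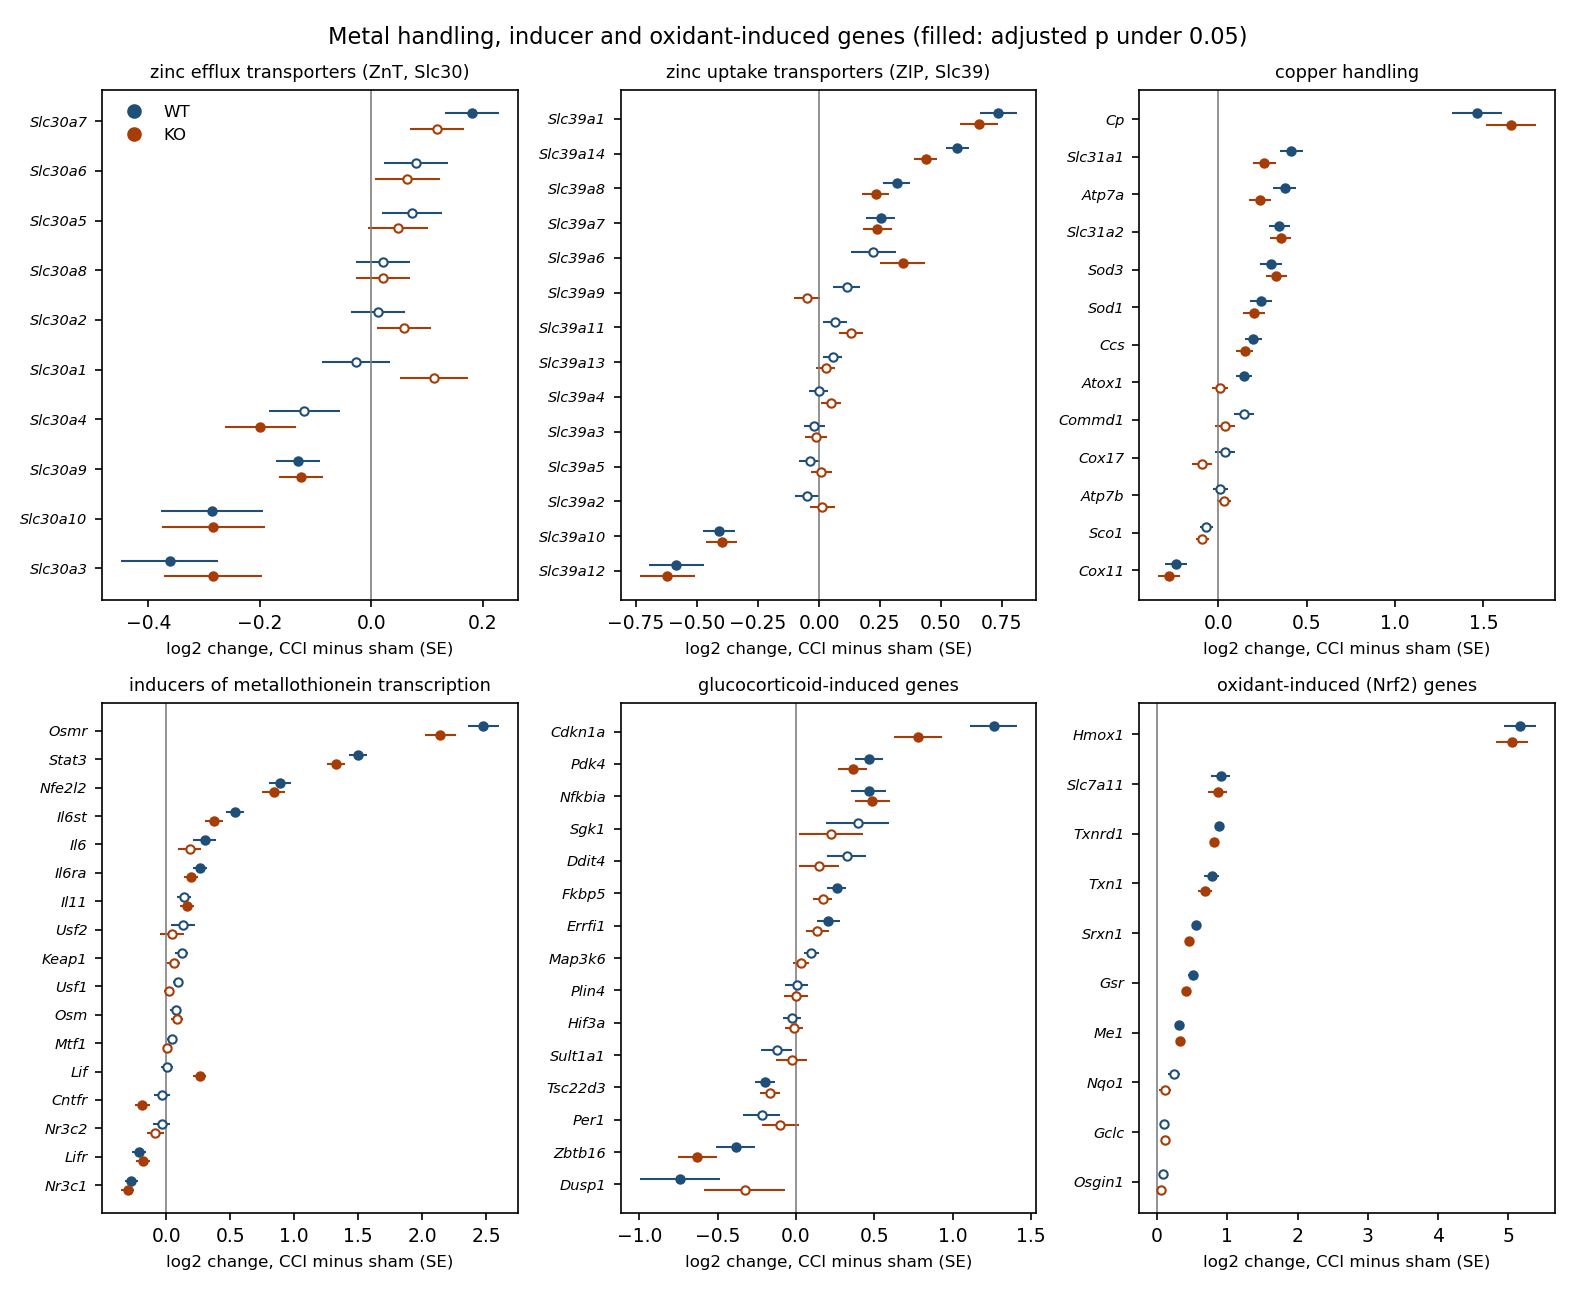
Panels show the log2 change with injury (horizontal axes, bars of 1 SE, n = 7 mice per group) for the measured genes of 6 lists in wild type and knockout, filled where the adjusted p was under 0.05, and each panel has its own axis. Slc39a1, Slc39a14, Cp, Osmr, Stat3 and Hmox1 are filled and to the right in both genotypes, while Mtf1 and Slc30a1 are open and near 0.

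In the genotype comparisons 2 of the 79 measured genes of these lists were called, both after sham treatment (2.53%, beside 1.28% of all rows). Gclc, the catalytic subunit for glutathione synthesis, had a mean of 10.66 in WT sham and 10.47 in KO sham and a log2 difference of -0.20 (limma adjusted p = 0.0218). Lif, which encodes leukaemia inhibitory factor, had means of 5.07 and 4.88, below the array medians, and a log2 difference of -0.20 (limma adjusted p = 0.0345). No gene of the zinc, copper, inducer, glucocorticoid or oxidant lists was called after injury, or for the difference between the injury changes.

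Of 8 measured neighbours of the cluster on chromosome 8, Nup93, a nuclear pore protein, rose in both genotypes (log2 change 0.38 and 0.30). With 1 rise and 1 fall among 8 in each genotype, the counts are near the 8.86% of rows higher and 7.96% lower in wild type and the 8.43% and 8.27% in knockout. Bbs2, a ciliary protein, fell by 0.30 in wild type, and Gnao1, a G protein subunit named here after its value was seen, fell by 0.16 in knockout. Of the other genes there, Mt4 included, none was called in either genotype.

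Markers of cell types moved with injury as well, in tissue where fewer cells of a type and less RNA per cell cannot be told apart. Beside the counts stand the 8.86% of all rows called higher and 7.96% lower in wild type, and 8.43% and 8.27% in knockout. Of 12 microglia and macrophage markers 10 rose and none fell in each genotype, and the mean of the list went from 6.81 to 6.97 in WT sham to 7.98 to 8.93 in WT CCI, and from 6.87 to 7.13 to 7.94 to 8.75 in knockout, with 1 of the 12, Ccr2, below the array medians. Of 12 astrocyte markers 7 rose and 1 fell in wild type and 4 rose and 1 fell in knockout, with list means of 9.98 to 10.08 in WT sham, 10.28 to 10.78 in WT CCI, 10.07 to 10.41 in KO sham and 10.31 to 10.76 in KO CCI. With arrays centred on their medians the knockout counts were 3 higher and 3 lower. Gfap rose by 4.55 and 3.06 in the respective genotypes. Between the sham groups, 1 of the 12 astrocyte markers was called, Gfap, and 11 were not, with a list median of 0.045. The mean of Gfap was 1.36 higher in KO sham than in WT sham (limma adjusted p = 0.0263), with values of 10.86 to 13.86 in KO sham and 10.77 to 11.55 in WT sham. Beside that difference, Mt2 and Gfap had r of -0.425 over the 7 KO sham mice (rho -0.393, exact permutation test, adjusted p = 0.688), and r of 0.367 without the 2 mice farthest from the median of Mt2, so its sign rests on those mice. Of 12 neuronal markers 5 fell in wild type and 6 in knockout, and none rose. Between the sham groups 1 of the 12 neuronal markers, Nefl, was called, lower in knockout (log2 difference -0.35), beside 1.28% of all rows called. After injury 2 of 12 neuronal, 2 of 8 endothelial and 1 of 7 oligodendrocyte markers were called lower in knockout, beside 0.653% of all rows called.

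Of 8 endothelial markers 5 rose and 1 fell in wild type, and 3 rose and 1 fell in knockout. Of 7 oligodendrocyte markers 5 rose in wild type, 3 without the 7 arrays, and 1 rose in knockout. Of 8 markers of pericytes and smooth muscle 2 rose in wild type, and 1 rose and 1 fell in knockout. Fibroblast markers gave 2 rises and 1 fall among 7 in each genotype. Choroid plexus and ependyma markers gave 1 call among 7, a rise in knockout that was absent without the 7 arrays, and the 6 striatal markers gave none. Single calls among 7 or 8 markers are near the shares of all rows called and are not read as a change of the cell type. The part of any of these cell types in the rise of Mt1, Mt2 and Mt3 was not tested.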

How the data were processed

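The deposited table holds log2 signal per transcript cluster, a reading made from its values, and the sources used here do not give how the authors normalized it. Per the labels' protocols, 100 ng of Trizol-extracted total RNA was biotinylated. Of 72688 rows, 6732 controls were left out and 65956 were tested, of which 31124 were named from the platform annotation, updated through RefSeq. No further normalization was applied.

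Differences were fitted in R 4.3.3 by limma 3.58.1, with lmFit and eBayes on 4 group means and a term for sex, with Benjamini-Hochberg adjustment over all rows. Unequal changes and correlations were tested exactly in Python 3.11.15 with scipy 1.17.1. Both scripts were tested on simulated data. Array values carry no depth, and their number limits the precision. Each numbered sample was taken as 1 mouse, which the labels imply but do not state, so p-values measure the spread between these samples, which may be technical.

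The members and lists were chosen with earlier results of these data known. Named genes are, per list, up to 3 called genes with the largest rise and 3 with the largest fall in wild type injury, the calls between genotypes, the 5 genes most like each member, and a few fixed names (Mtf1, Nr3c1, Stat3, Slc30a1, Slc30a3, Slc39a14, Mt4, Gfap and Rbm5). Alternatives were no sex term, the title-number run as a covariate or alone, array weights, a variance trend, arrays centred on their medians, quantile normalization, brighter rows only, no 7 arrays with signal of neighbouring tissue, and leaving out each array. The female minus male difference, and the list alternatives in knockout and for cell types, were added after the data were seen. Protein sequences were not used here.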

Additional observations from a re-analysis of the deposited data

Results flagged for a closer look

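In 36 sets of 7 values, the levels of Mt1, Mt2, Mt3, Mt4, Gfap and Rbm5 and the differences between Mt1, Mt2 and Mt3 within arrays in each of 4 groups, 3 values stood apart from the others of their group by Dixon's criterion, which chance meets in about 1 of 20 groups. WT CCI mouse 35 had the highest Mt1 minus Mt3 in its group, a log2 difference of 3.74 with the next mouse at 3.08, and the highest Mt2 minus Mt3, 5.61 with the next at 4.96. These differences place mice in order and are no ratio of transcripts. That mouse had a striatal marker mean of 9.58 and the lowest astrocyte marker mean of the injured wild type mice, 10.28, and their part in its values was not tested. KO sham mouse 11 had the highest Mt1 minus Mt3 in its group, 2.87 with the next at 2.75, and its Mt3 signal of 12.47 was the lowest of that group.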

How the results depend on the processing

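The rise of Mt2 with injury was called under every alternative tried in both genotypes, with log2 changes from 1.37 to 1.64 in wild type and 1.12 to 1.31 in knockout, and the rises of Mt1 and Mt3 were called when any single array was left out. With only title numbers 25 to 42 the calls of Mt3 in wild type (0.43), Mt1 in knockout (0.61) and Mt3 in knockout (0.31) were lost, and with 3 mice per group the exact tests cannot go below 0.1, so that Mt1 minus Mt2 (-0.64 in wild type, -0.53 in knockout), Mt2 minus Mt3 (1.07 and 0.88) and Mt1 minus Mt3 in knockout (0.35) were not called. In knockout Mt1 minus Mt3 was also not called with title numbers 1 to 24 (0.28) or after quantile normalization (0.18), and in wild type it ran from 0.11 to 0.28 when single arrays were left out.

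Changes of sign were seen only among differences that were not called. With title numbers 25 to 42 they were those of Mt1 (-0.10) and Mt2 (-0.17) between genotypes after injury and of Mt1 for the difference of injury changes (-0.25), and with title numbers 1 to 24 that of Mt3 for the same difference (0.0062). The Mt1 difference of injury changes was also negative without the 7 arrays (-0.056), after quantile normalization (-0.0040) and after centring on medians (-0.029), and ran from -0.044 to 0.067 when single arrays were left out, while that of Mt3 ran from -0.099 to 0.0079. Without the 7 arrays, signs turned for Mt3 between genotypes after injury (-0.059), for the female minus male injury change of Mt2 (-0.059) and Mt3 (-0.037) and for Mt3 between the sexes (-0.017). The sex values there had WT CCI mouse 34 and KO CCI mouse 21 as the only injured males. When single arrays were left out, the female minus male injury change of Mt3 ran from -0.0035 to 0.12 and the female minus male difference of Mt2 from 0.27 to 0.33. The cause was not tested.

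Counts of called list genes moved by over 1.5 times as follows. Without the 7 arrays, zinc exporters had 0 calls in wild type and 2 in knockout in place of 4 each, glucocorticoid-induced genes 4 in place of 8, oligodendrocyte markers 3 in place of 5, pericyte markers 1 in place of 2 in knockout, and choroid plexus markers 0 in place of 1 in knockout. Without the sex term glucocorticoid-induced genes had 5 calls. After quantile normalization inducers had 6 in place of 10 in knockout, pericyte markers 1 and choroid plexus markers 0. Centring on medians gave 1 pericyte call in wild type, and the brighter rows alone gave 0 choroid plexus calls in knockout.

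Over all rows, 11094 were called for injury in wild type, against 5900 and 5217 in the lower and upper runs, and 11017 in knockout against 2567 in the upper run. For genotype after sham 847 were called, against 472 and 5 in the runs and 1279 with array weights, and after injury 431 against 125 and 15 in the runs and 187 without the 7 arrays. Centring on medians moved the knockout injury calls from 5560 higher and 5457 lower to 4021 higher and 7576 lower. No paired analysis was possible because the groups share no replicate numbers.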
